A study of Mus musculus with 2 samples.

Results

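The genes described here are the mouse zinc finger genes numbered Zfp400 to Zfp999. Within that range each gene was chosen by symbol alone among protein-coding genes. There are 236 of them among 21887 protein-coding genes of the mm10 annotation. The set itself was chosen with earlier results of these data known, so its shares and intervals are not those of a set chosen blind to the data. Each gene was read for peaks of the acetyltransferase KAT8 lying at most 1000 bp from an end of the gene, which is called a gene-end peak below. The peaks came from CUT&Tag, a method that tethers a transposase to an antibody on chromatin so that fragments near the target are tagged for sequencing. The cells were primary macrophages raised from mouse bone marrow in medium with 20 ng/ml M-CSF. The R848 group received R848, a compound that activates TLR7 in endosomes, at 100 ng/ml for 2 h, and the untreated group received no R848 (0 h). Each group was 1 library, both groups carried the same M-CSF, and the labels give no genotype, strain, age or number of animals. With 1 library per group no difference between the groups has a replicate check, so values are given side by side and no p-value is attached to a difference.

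Most of these genes encode proteins with arrays of C2H2 zinc fingers, which read DNA sequence, and many of the proteins also carry a KRAB domain. In mammals a KRAB domain recruits the co-repressor TRIM28, which brings the H3K9 methyltransferase SETDB1 and HP1 proteins to the bound site, often a retrotransposon. The family grew by tandem duplication, so that many members stand beside close copies of themselves. KAT8 acetylates histone H4 within the MSL and NSL complexes, and the NSL complex is known for binding at promoters.

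The R848 list held 44772 peaks covering 15.3 Mb and the untreated list 52001 peaks covering 17.8 Mb. Both lists reached down to a −log10 p of 2.01, and a q-value of 0.05 or less was held by 41.1% of R848 peaks and 36.3% of untreated peaks. The fragment background solved from the deposited values was 2.62 in the R848 library and 3.37 in the untreated library, a ratio of 1.29 for untreated over R848, so the R848 library was the shallower by this measure. Of 8 macrophage marker genes, 3 had a gene-end peak in the R848 list and 2 in the untreated list, Cd68 in both, while Lyz2, Adgre1, Csf1r and Itgam had none in either. None of 8 marker genes of other cell types had one in either list, which allows a share of up to 36.9% in each list (exact 95% interval). A KAT8 peak does not measure expression, so these marker counts bear on cell identity only weakly.

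A gene-end peak was found at 47 of the 236 zinc finger genes in R848 (19.9%, exact 95% interval 15.0 to 25.6%) and at 72 in the untreated list (30.5%, 24.7 to 36.8%). Over all protein-coding genes the share was 24.4% in the R848 list and 28.8% in the untreated list, and both of these backgrounds lay within the members' intervals. With a q-value of 0.05 or less, 29 members (12.3%) had a peak in the R848 list against 15.1% of all genes, and 37 members (15.7%) in the untreated list against 16.7%. The members' own shares were thus near the genome's in either list. The intervals cover counting error only and treat genes as independent, although neighbours can share a peak.

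In all, 32 members (13.6%) had a gene-end peak in both lists, against 17.3% of all protein-coding genes. A further 15 members (6.36%) had one in the R848 list only, against 7.11% of all genes. In the untreated list only there were 40 members (16.9%, interval 12.4 to 22.4%), against 11.5% of all genes, a background that lay below the interval. The remaining 149 members (63.1%) had no gene-end peak. When only peaks with a q-value of 0.05 or less were counted in both lists, 10 members (4.24%) were R848 only, against 4.60% of all genes, and 18 (7.63%, interval 4.58 to 11.8%) were untreated only, against 6.15%, so that both backgrounds then lay inside the members' intervals. The untreated summit fragments and local background were also scaled down to the R848 background. Keeping the untreated peaks with a Poisson tail p-value of 0.01 or less then left 37 of the 40 untreated-only members. This scaling adds no counting noise to peaks already called, so it cannot show how many a shallower library would keep. The part that depth plays in the difference was not tested.

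**Figure D1:**
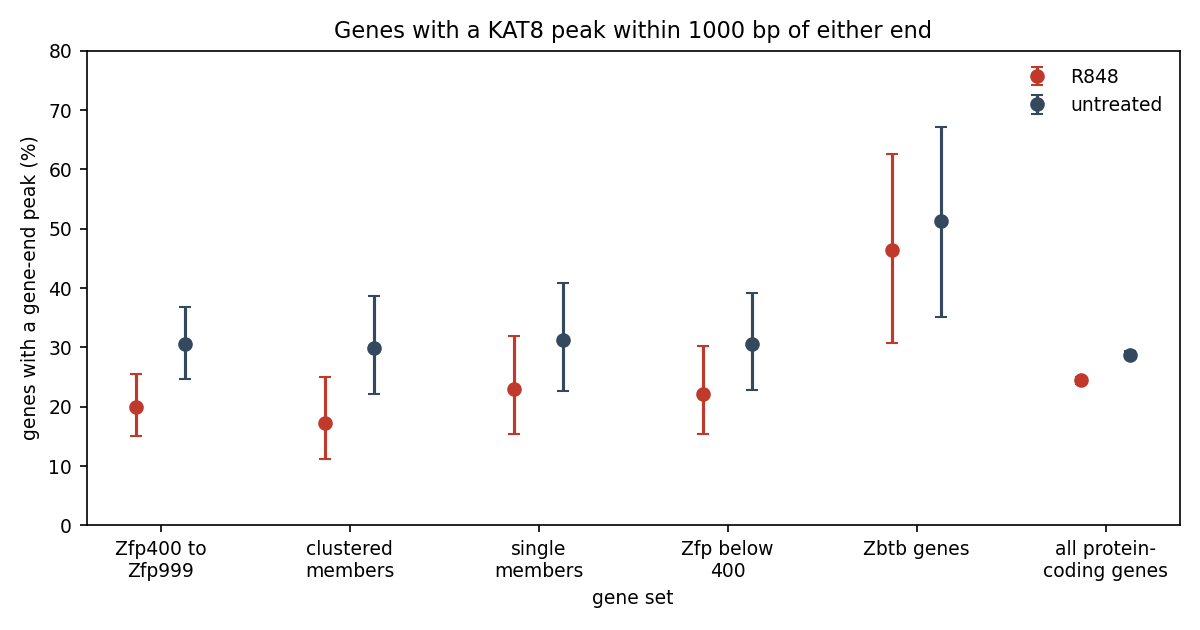
Percent of genes with a gene-end peak (y axis) in the R848 list (left point of each pair) and the untreated list (right point), for the Zfp400 to Zfp999 genes, their clustered and single members, the lower-numbered Zfp genes, the Zbtb genes and all protein-coding genes, with exact 95% binomial intervals that cover counting error only. The members, at 19.9% and 30.5%, sit near all genes, at 24.4% and 28.8%, while the Zbtb genes sit higher, at 46.3% and 51.2%.

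Other zinc finger families gave a scale for these shares. The lower-numbered Zfp genes, below Zfp400, had a gene-end peak at 29 of 131 genes in the R848 list (22.1%) and at 40 in the untreated list (30.5%), values within the intervals of the higher-numbered genes. The Zbtb genes, whose proteins join zinc fingers to a BTB domain, had one at 19 of 41 in the R848 list (46.3%, interval 30.7 to 62.6%) and at 21 in the untreated list (51.2%, 35.1 to 67.1%). The Zbtb interval lay above that of the higher-numbered Zfp genes in the R848 list and overlapped it in the untreated list.

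The highest fold over background at any member was at Zfp771. Its peak had a fold of 10.6 with 75 fragments at the summit in the R848 list and a fold of 11.8 with 75 fragments in the untreated list. It stood at the end of the gene's last exon, at chr7:127253875-127254740 in the R848 list and chr7:127253846-127254849 in the untreated list (mm10), and no end of another protein-coding gene lay within 1000 bp of it. The next folds were far lower in both lists. The annotated promoter of Zfp771 begins over 1000 bp inside the gene of the gene table, and was covered by another peak, with a fold of 4.44 in R848 and 3.89 in untreated.

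Zfp706, which in mouse embryonic stem cells promotes exit from self-renewal, had a fold of 6.35 in the R848 list and 6.87 in the untreated list, with 22 and 29 fragments. Zfp687, whose human counterpart is mutated in a severe form of Paget disease of bone, had a fold of 4.98 with 20 fragments in the R848 list and 7.28 with 38 fragments in the untreated list. Zfp869 had a fold of 5.53 with 19 fragments in the R848 list and 7.10 with 30 fragments in the untreated list. All 3 genes thus had more fragments in the deeper untreated library, yet the exact Poisson intervals of their fragment counts overlapped (for Zfp687, 12.2 to 30.9 in R848 and 26.9 to 52.2 in untreated). Zfp740 (5.88 in R848, 5.24 in untreated) and Zfp654 (5.53 in R848, 5.49 in untreated) had near-equal folds, but each shares its peak with a neighbour, the start of Csad for Zfp740 and an end of Cggbp1 for Zfp654.

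The rest of the 12 members with the highest folds in both lists were at a fold of 3.59 to 4.70 in the R848 list and 3.89 to 5.72 in the untreated list. Zfp639 had 3.59 in R848 and 5.72 in untreated, and Zfp513, whose human counterpart is mutated in retinitis pigmentosa, had 3.87 in R848 and 4.81 in untreated. Zfp414 had 4.70 in R848 and 4.81 in untreated, and Zfp524, a telomere-binding protein, 4.14 in R848 and 4.58 in untreated. Zfp438 (4.42 in R848, 4.12 in untreated) and Zfp516 (4.14 in R848, 3.89 in untreated), a regulator of brown fat in mice, completed the set, Zfp516 being tied at its R848 fold with Zfp868, Zfp866 and Zfp961. The direction of the small differences was mixed, 2 of these 6 being higher in the R848 list and 4 in the untreated list.

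Over all 32 members with peaks in both lists, the fold ranged from 2.72 to 10.6 with a median of 3.59 in the R848 list, and from 2.52 to 11.8 with a median of 3.55 in the untreated list. The fold was higher in the R848 list at 16 of the 32 members, against 51.1% of all genes with peaks in both. The summit held more fragments in the R848 library at 5 members, fewer at 26 and the same number at 1, and the exact Poisson intervals of the R848 and untreated counts overlapped at all 32. The median folds were thus near each other, while single genes differed in either direction. Zfp639 had 3.59 in R848 and 5.72 in untreated, and Zfp866 had 4.14 in R848 and 2.75 in untreated. Overlap of intervals this wide does not show that the folds of a gene were alike. The part that depth plays in the fragment counts was not tested. At 31 of the 32 the R848 and untreated peaks overlapped one another, the exception being Zfp472. Zfp598, an E3 ligase that senses collided ribosomes, was in this group with a fold of 3.49 in R848 and 2.75 in untreated.

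**Figure D2:**
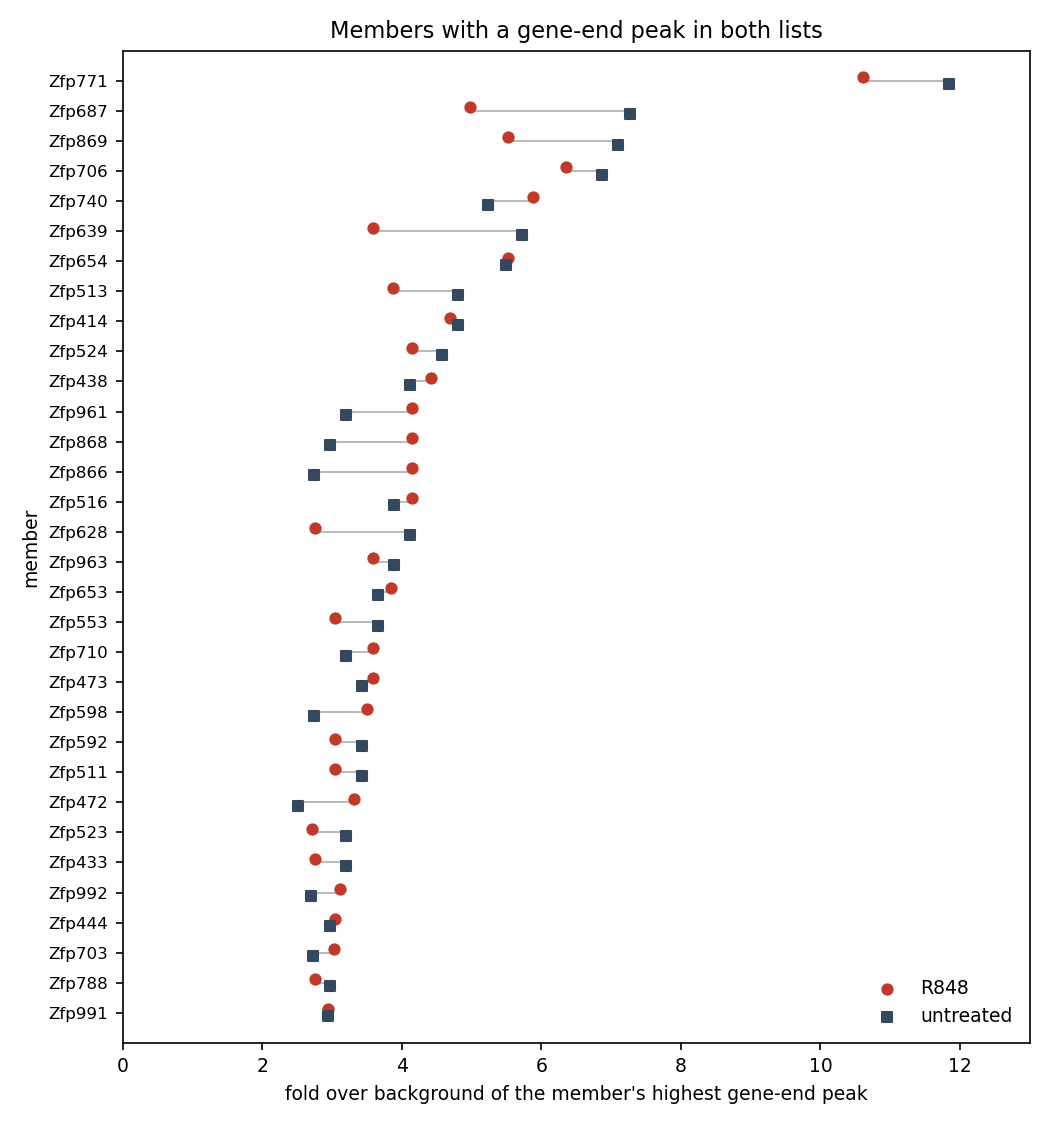
Fold over background (x axis) of the highest gene-end peak of each of the 32 members with a gene-end peak in both lists, 1 row per gene, with R848 as circles and untreated as squares and no error bars, since each value comes from 1 library. Zfp771, at 10.6 in R848 and 11.8 in untreated, stands apart, and the order of the pair of points changes from gene to gene among the rest.

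Among the 15 members with a gene-end peak in the R848 list only, the fold ranged from 2.21 to 4.14 with a median of 3.04, and summits held 7 to 20 fragments. The highest was Zfp938, with a fold of 4.14 and 14 fragments, but its peak lay 966 bp from the gene's end, near the limit of the window. Zfp746, which encodes PARIS, a repressor of PGC-1α, came next with 3.59 and 12 fragments, and Zfp993 had 3.38 and 20 fragments. Zfp688, Zfp964 and Zfp853 had 3.32 and 11 fragments each, and Zfp995 and Zfp941 had 3.04 and 10 fragments each. The lowest count that the R848 list holds was 7 fragments, and 6 of the 15 had a q-value of 0.05 or less (2.54% of members, against 2.46% of all genes with such an R848 peak and no untreated peak).

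Among the 40 members with an untreated gene-end peak only, the fold ranged from 2.06 to 4.12 with a median of 2.75, and summits held 8 to 46 fragments. Zfp566 was highest with a fold of 4.12 and 17 fragments, followed by Zfp954 with 3.89 and 16 fragments. Zfp978 had a fold of 3.83 with 46 fragments over a local background of 11.3. Zfp978, like Zfp979 (12.5) and Zfp982 (6.82) of the same cluster, had a local background well above the 3.37 of most of the genome. Zfp768 and Zfp764 had 3.66 and 15 fragments each, and Zfp809, Zfp408 and Zfp786 had 3.43 and 14 fragments each. Zfp809 silences retroviral elements in mouse embryonic cells through TRIM28. Zfp568, which represses a placental Igf2 transcript in mice, was also in this group, with a fold of 2.75 and 11 fragments. A q-value of 0.05 or less was reached by 12 of the 40 (5.08% of members, against 3.66% of all genes with such an untreated peak and no R848 peak).

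No peak of either single-list group overlapped a peak of the other list lying beyond the window, in 0 of 15 and 0 of 40 members. Some other peak of the untreated list lay in the gene or within 1000 bp of it for 5 of the 15 R848-only members, and of the R848 list for 11 of the 40 untreated-only members. The window of 1000 bp sets these counts, and a window of 3000 bp took in 33.5% of members in R848 and 39.8% in untreated, against 32.9% and 38.0% of all genes. In the R848 list the last members inside it were Zfp651, Zfp688 and Zfp938, at 906, 959 and 966 bp, and the first outside were Zfp660, Zfp978 and Zfp488, at 1067, 1087 and 1214 bp. In the untreated list Zfp959, Zfp664 and Zfp579 were inside at 856, 910 and 914 bp, and Zfp451, Zfp787 and Zfp574 outside at 1045, 1211 and 1225 bp. Zfp451, a SUMO ligase, therefore counts as a gene with no gene-end peak, as do Zfp423, which commits cells to the adipocyte lineage in mice, and Zfp521, a partner of the B-cell factor EBF1.

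The strand was known for 195 members, of which 193 were at least 3000 bp long, so that the gene's start and its last-exon end could be told apart. A peak stood at the start of 35 of the 193 in the R848 list (18.1%, against 24.3% of all such genes) and of 51 in the untreated list (26.4%, against 29.2%). A peak stood at the last-exon end of 3 members in the R848 list (1.55%, against 4.06%) and of 5 in the untreated list (2.59%, against 4.28%). By the ends of the gene table, no member had peaks at both ends in either list. Of those with a gene-end peak, 92.1% in the R848 list and 91.1% in the untreated list thus had it at the start.

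The last-exon ends with a peak belonged to 7 members in all. Zfp771 had its peak there in both lists. Zfp941 (fold 3.04) and Zfp651 (2.76) had one in the R848 list, and Zfp663 (2.98), Zfp664 (2.70), Zfp534 (2.45) and Zfp579 (2.06) in the untreated list. Apart from Zfp771, all of these were weak and in a single list.

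At the members' starts the summit of the peak lay close to the nearest annotated start. The median offset was 29 bp downstream in the R848 list and 81 bp downstream in the untreated list, and the median distance regardless of side was 162 bp in R848 and 178 bp in untreated. The summit was within 300 bp of a start at 26 of 35 members in the R848 list and at 33 of 51 in the untreated list. Only peaks at most 1000 bp from the gene's start entered, and the smallest distance of each member was taken. Closeness is therefore partly set by the method, and the same distances were not computed over all genes. It lay downstream of the start at 19 of 35 in R848 and at 32 of 51 in untreated. A few summits were over 1000 bp from any start in the promoter table, at Zfp938 and Zfp458 in the R848 list and at Zfp597, Zfp786, Zfp580 and Zfp667 in the untreated list. In the other direction, 6 members in R848 and 7 in untreated had a peak over an annotated promoter that lies beyond the window at the start of the gene table. Among them were Zfp787 (6.87 in R848, 6.50 in untreated) and Zfp821 (5.53 in R848, 5.06 in untreated), neither of which had a gene-end peak, and Zfp771 was the only one with a peak at its last-exon end as well.

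**Figure D3:**
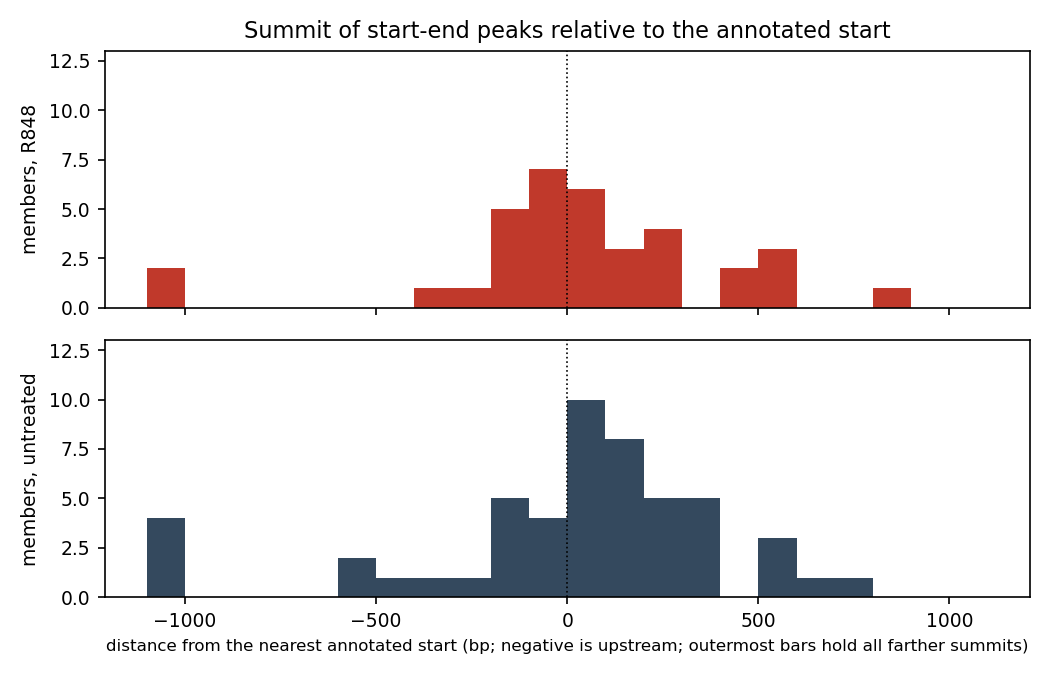
Number of members (y axis) by distance in bp from the summit of the start peak to the nearest annotated start (x axis, negative upstream, the outermost bars holding all farther summits), with the R848 list above the untreated list. The summits, taken from peaks at most 1000 bp from the gene's start, gather around the start, with medians of 29 bp in R848 and 81 bp in untreated.

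Members were called clustered where another member lay within 100 kb, which gave 127 clustered genes in 35 clusters, the largest of 12 genes, and 109 single genes. In the R848 list 22 clustered genes (17.3%, interval 11.2 to 25.0%) and 25 single genes (22.9%, 15.4 to 32.0%) had a gene-end peak. The untreated list gave 38 clustered genes (29.9%, 22.1 to 38.7%) and 34 single genes (31.2%, 22.7 to 40.8%). These intervals overlapped broadly in both lists. Peaks in both lists stood at 13 clustered genes (10.2%) and 19 single genes (17.4%), and peaks in the untreated list only at 25 clustered (19.7%) and 15 single genes (13.8%). The median top fold was 3.32 for clustered and 3.59 for single genes in the R848 list, and 2.98 and 3.20 in the untreated list. Clustered and single genes were of like length, with medians of 17336 and 19542 bp. The last pair inside the 100 kb limit was Zfp932 and Zfp605, 97762 bp apart, and the first outside was Zfp936 and Zfp715, 104413 bp apart.

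In 4 clusters every member had a gene-end peak in at least a single list, and the largest of these lies on chromosome 8, where Zfp868, Zfp964, Zfp869, Zfp963 and Zfp866 span 164 kb. All 5 had a gene-end peak in the R848 list and 4 in the untreated list. Zfp869 had the highest fold, 5.53 in R848 and 7.10 in untreated. Zfp868 had 4.14 in R848 and 2.98 in untreated, Zfp866 had 4.14 and 2.75, and Zfp963 had 3.59 and 3.89. Zfp964 had 3.32 in the R848 list and no untreated peak. Zfp869 was the only one of the 5 whose untreated fold exceeded 4. Every R848 peak had a q-value of 0.05 or less, whereas the untreated peaks of Zfp868 and Zfp866 had a q-value above 0.05. Across chromosome 8, 7 of 18 members had a gene-end peak in R848 (38.9%, against 31.4% of all genes there) and 8 in untreated (44.4%, against 38.4%).

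A promoter of each of these 5 genes is shown because it overlapped a peak of at least the R848 list, together with 3 promoters of single genes with high folds, Zfp687, Zfp414 and Zfp639. They are RefSeq sequences of GRCm38.p6, the assembly of mm10, running 5′ to 3′ on the gene's strand from 250 bases before the start to 50 after it. Capitals mark letters that match any of the 8 motifs named after the sequences, on either strand. The places are chr8:69625499-69625798 (minus strand) for Zfp868, chr8:69654306-69654605 (plus) for Zfp964, chr8:69716853-69717152 (minus) for Zfp869, chr8:69749913-69750212 (minus) for Zfp963 and chr8:69774862-69775161 (minus) for Zfp866. Those of the single genes are chr3:95015408-95015707 (minus) for Zfp687, chr17:33628842-33629141 (plus) for Zfp414 and chr3:32510342-32510641 (plus) for Zfp639.
Zfp868: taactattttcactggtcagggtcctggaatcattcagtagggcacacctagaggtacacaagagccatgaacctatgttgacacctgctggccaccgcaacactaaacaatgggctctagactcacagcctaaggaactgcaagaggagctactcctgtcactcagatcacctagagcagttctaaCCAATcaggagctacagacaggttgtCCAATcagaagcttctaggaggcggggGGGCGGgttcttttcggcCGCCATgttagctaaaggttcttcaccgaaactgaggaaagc
Zfp964: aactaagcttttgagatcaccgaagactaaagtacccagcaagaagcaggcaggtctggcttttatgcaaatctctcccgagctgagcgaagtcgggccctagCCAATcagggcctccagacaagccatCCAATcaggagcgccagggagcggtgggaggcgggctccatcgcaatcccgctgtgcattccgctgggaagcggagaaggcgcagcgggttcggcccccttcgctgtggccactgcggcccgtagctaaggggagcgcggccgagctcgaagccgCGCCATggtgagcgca
Zfp869: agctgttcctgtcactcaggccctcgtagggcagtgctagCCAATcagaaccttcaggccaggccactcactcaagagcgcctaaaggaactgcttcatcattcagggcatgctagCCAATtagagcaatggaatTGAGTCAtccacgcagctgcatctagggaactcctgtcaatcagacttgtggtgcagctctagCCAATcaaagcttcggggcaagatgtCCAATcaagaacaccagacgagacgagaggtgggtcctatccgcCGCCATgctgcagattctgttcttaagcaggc
Zfp963: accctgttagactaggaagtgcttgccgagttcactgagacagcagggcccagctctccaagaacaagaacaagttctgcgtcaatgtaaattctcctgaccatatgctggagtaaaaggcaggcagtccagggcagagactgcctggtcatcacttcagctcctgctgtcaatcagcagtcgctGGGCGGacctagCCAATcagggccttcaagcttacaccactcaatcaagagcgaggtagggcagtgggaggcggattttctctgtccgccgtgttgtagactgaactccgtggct
Zfp866: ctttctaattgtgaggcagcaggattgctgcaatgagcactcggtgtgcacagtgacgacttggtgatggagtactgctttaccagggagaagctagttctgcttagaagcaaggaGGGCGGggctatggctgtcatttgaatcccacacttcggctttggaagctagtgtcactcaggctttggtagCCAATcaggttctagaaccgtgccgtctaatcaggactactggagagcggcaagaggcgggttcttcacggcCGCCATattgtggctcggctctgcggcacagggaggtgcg
Zfp687: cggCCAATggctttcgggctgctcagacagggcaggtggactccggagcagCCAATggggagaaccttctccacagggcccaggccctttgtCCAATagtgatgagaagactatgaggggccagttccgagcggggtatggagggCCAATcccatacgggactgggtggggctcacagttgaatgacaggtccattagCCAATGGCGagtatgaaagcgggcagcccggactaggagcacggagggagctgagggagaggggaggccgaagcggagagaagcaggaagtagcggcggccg
Zfp414: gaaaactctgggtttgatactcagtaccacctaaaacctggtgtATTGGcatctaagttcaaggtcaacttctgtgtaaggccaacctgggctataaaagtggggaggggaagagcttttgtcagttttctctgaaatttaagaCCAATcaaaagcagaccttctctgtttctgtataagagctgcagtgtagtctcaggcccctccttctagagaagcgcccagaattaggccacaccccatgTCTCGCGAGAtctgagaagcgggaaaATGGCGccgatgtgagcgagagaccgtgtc
Zfp639: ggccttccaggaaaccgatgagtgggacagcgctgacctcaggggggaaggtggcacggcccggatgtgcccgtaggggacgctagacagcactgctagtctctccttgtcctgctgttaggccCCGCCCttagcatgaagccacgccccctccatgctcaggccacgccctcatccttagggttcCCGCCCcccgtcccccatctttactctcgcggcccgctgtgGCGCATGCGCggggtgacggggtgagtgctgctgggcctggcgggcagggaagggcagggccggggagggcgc

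The motifs searched on both strands were CGGAAG (ETS factors), GGGCGG (SP and KLF factors), ATGGCG (YY1), TGACGTCA (CRE), TGANTCA (AP-1), CCAAT (NFY) and the palindromes of 10 letters known for NRF1 and for BANP or ZBTB33. The ETS and SP/KLF letters can overlap in GGGCGGAAG, and the NFY and YY1 letters in CCAATGGCG. A match describes the letters of these windows and is not a bound site. In the chromosome 8 array all 5 printed promoters held CCAAT, at 1 place in Zfp963 and Zfp866, 2 in Zfp868 and Zfp964, and 4 in Zfp869. The YY1 letters, written CGCCAT on the gene's strand, began 8 bases after the start in Zfp868, 10 in Zfp866, 18 in Zfp869 and 34 in Zfp964, and were not in the printed window of Zfp963. A further promoter of Zfp868, covered in both lists and not printed, held neither CCAAT nor the YY1 letters but held CRE, ETS and SP/KLF letters. The printed promoter of Zfp687 held 5 CCAAT matches, the last of which overlapped its YY1 match. Another promoter of Zfp687, covered in the untreated list only and not printed, held neither but held SP/KLF letters. Zfp414 held the BANP or ZBTB33 letters, and Zfp639 held NRF1 and SP/KLF letters.

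Over the 232 promoters of the 195 members found in the RefSeq table, of which some genes have several, a peak covered 40 (17.2%) in the R848 list, against 18.1% of 21263 promoters of all protein-coding genes. In the untreated list it covered 56 (24.1%), against 21.6%. The other 41 members were not in the table. Member promoters covered in both lists had a median of 23 CpG dinucleotides per 300 bases, those covered in a single list 16 and those covered in neither 10. Over all genes the median was 27 in promoters covered in both lists and 7 in those covered in neither, so the same order held. The median GC content of member promoters was 65.8% where covered in both lists, 57.8% in a single list and 53.0% in neither.

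The YY1 letters were found in 12 of 32 member promoters covered in both lists (37.5%) and in 8.33% of the 168 that were not covered, against 19.3% and 8.35% over all genes and 10.9% of all promoters. Of 35 member promoters with the YY1 letters, 45.7% were covered in R848 and 48.6% in untreated, and of the 197 without them 12.2% and 19.8% were. Over all genes the covered shares were 30.3% in R848 and 37.0% in untreated with the letters, and 16.6% and 19.7% without them. Members with the letters were thus covered more often than members without them in both lists, and the same order was seen for genes at large. In members these matches lay nearer the start, with a median position of −7.5 and 83.3% within 50 bp, against −46 and 51.2% over all genes. Promoters of 1 gene and of close copies share sequence, so these counts are not independent.

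Other motifs were spread in another way. SP/KLF letters were in 75.0% of member promoters covered in both lists and 39.9% of those not covered, against 82.2% and 35.6% over all genes and 46.2% of all promoters. CCAAT was in 46.9% of covered and 49.4% of uncovered member promoters, against 46.4% and 36.9% over all genes, and in 51.3% of all member promoters against 38.2% of all promoters. ETS letters were in 25.0% of member promoters covered in both lists and 33.9% of uncovered ones, and in 34.5% of all member promoters against 21.1% of all promoters, whereas over all genes they were in 35.9% of promoters covered in both lists and 16.1% of uncovered ones. The CRE was in 5 of 32 member promoters covered in both lists (15.6%) and in 1.79% of uncovered ones. Over all genes these shares were 3.50% and 1.70%, and 2.23% of all promoters held the CRE. Overlapping windows of Zfp473 count more than once among the 5, and the others belong to Zfp523 and Zfp868. NRF1 letters were in 2 of the 32 (6.25%) and 1.19% of uncovered ones, against 2.50% and 0.897% over all genes and 1.33% of all promoters. AP-1 letters were in 2 of the 32 (6.25%) and 4.17% of uncovered ones, against 3.12% and 8.14% over all genes and 6.99% of all promoters. The BANP or ZBTB33 letters were in 1 of 32 and none of the 168, against 0.673% of all promoters. Shares resting on so few promoters are uncertain.

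**Figure D4:**
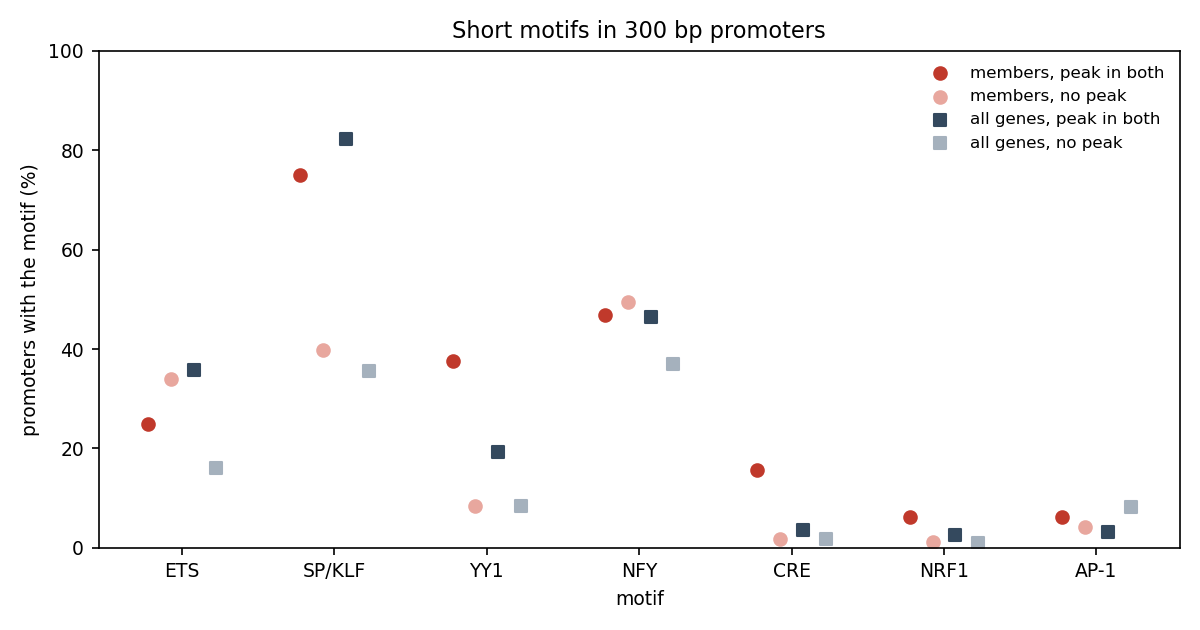
Percent of promoters holding each motif (y axis) for member promoters covered by a peak in both lists or in neither list (circles) and for promoters of all protein-coding genes in the same pair of classes (squares). The YY1 letters stand at 37.5% in covered and 8.33% in uncovered member promoters, while CCAAT (NFY) stands at 46.9% and 49.4%.

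By chromosome the members were most numerous on chromosome 7, with 58 genes. Of these, 13 had a gene-end peak in the R848 list (22.4%, against 21.5% of all genes on the chromosome) and 25 in the untreated list (43.1%, against 27.4%). In 10 the peak was in both lists (17.2%), in 3 in R848 only (5.17%) and in 15 in untreated only (25.9%). Over all protein-coding genes of the genome these shares were 17.3%, 7.11% and 11.5%, and they were not computed for chromosome 7 alone. Chromosome 7 thus held 15 of the 40 untreated-only members and 58 of all 236 members. Zfp668 and Zfp646 share their peaks, as do Zfp784 and Zfp580, so the 15 are not independent. With a q-value of 0.05 or less, 5 members there had a peak in R848 and 13 in untreated. The shares of all chromosome 7 genes at this threshold were not computed, so these counts have no background beside them. Chromosome 13, with 19 members, had 2 in R848 (10.5%, against 21.4%) and 2 in untreated (10.5%, against 31.6%), none of them in both lists. On chromosome 2, 1 of 16 members had a peak in R848 (all genes there 22.0%) and 3 in untreated (26.1%). On chromosome 17 there were 5 of 27 in R848 (27.0%) and 7 in untreated (31.8%), and on chromosome 4 there were 4 of 20 in R848 (27.3%) and 6 in untreated (30.3%).

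Near chr7:127233061-127449158 a cluster of 7 genes from Zfp553 to Zfp689 had a gene-end peak at 3 genes in R848 and 5 in untreated. Zfp553 (3.04 in R848, 3.66 in untreated) and Zfp771 had one in both lists, Zfp688 in R848 only and Zfp768, Zfp764 and Zfp689 (2.75) in untreated only, while Zfp747 had none. Further along, Zfp668 and Zfp646 lie 78 bp apart and shared 2 untreated peaks, at chr7:127875712-127876185 and chr7:127876380-127876582. A cluster of 6 genes from Zfp628 to Zfp580, near the other end of the chromosome, had a peak at 2 genes in R848 and 5 in untreated. Zfp628 (2.76 in R848, 4.12 in untreated) and Zfp524 were in both lists, Zfp579, Zfp784 and Zfp580 in untreated only, and Zfp865 in neither. Zfp784 and Zfp580 shared the peak at chr7:5038310-5038616, with a fold of 2.98.

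On chromosome 13 a cluster of 12 genes from Zfp712 to Zfp748 had gene-end peaks at 3 genes over 515 kb. Zfp458 (2.76) and Zfp429 (2.21) were in the R848 list only and Zfp712 (2.75) in the untreated list only, and the other 9 had none. All 3 peaks had a q-value above 0.05.

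A stretch of chromosome 4 from Zfp990 to Zfp933, at chr4:145510759-147849126, held 16 members and a dense field of peaks. It had 104 peaks per Mb in the R848 list and 131 in the untreated list, against 19.2 and 21.0 over the rest of chromosome 4. In gene-end windows lay 6 of its 244 R848 peaks and 7 of its 306 untreated peaks. A gene-end peak was found at 4 of the 16 members in R848 and at 6 in untreated. Most of the dense field thus lay outside these windows, which take up a small part of the stretch. Peak density inside and outside the windows was not compared. Local background there had a median of 5.42 fragments in R848 and 6.85 in untreated, against 2.62 and 3.37 for most of the genome, and the median fold was 2.75 in R848 and 2.60 in untreated. Peaks overlapped one of the other list in 53.3% of cases in R848 and 42.8% in untreated, against 35.8% and 31.0% of all peaks.

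**Figure D5:**
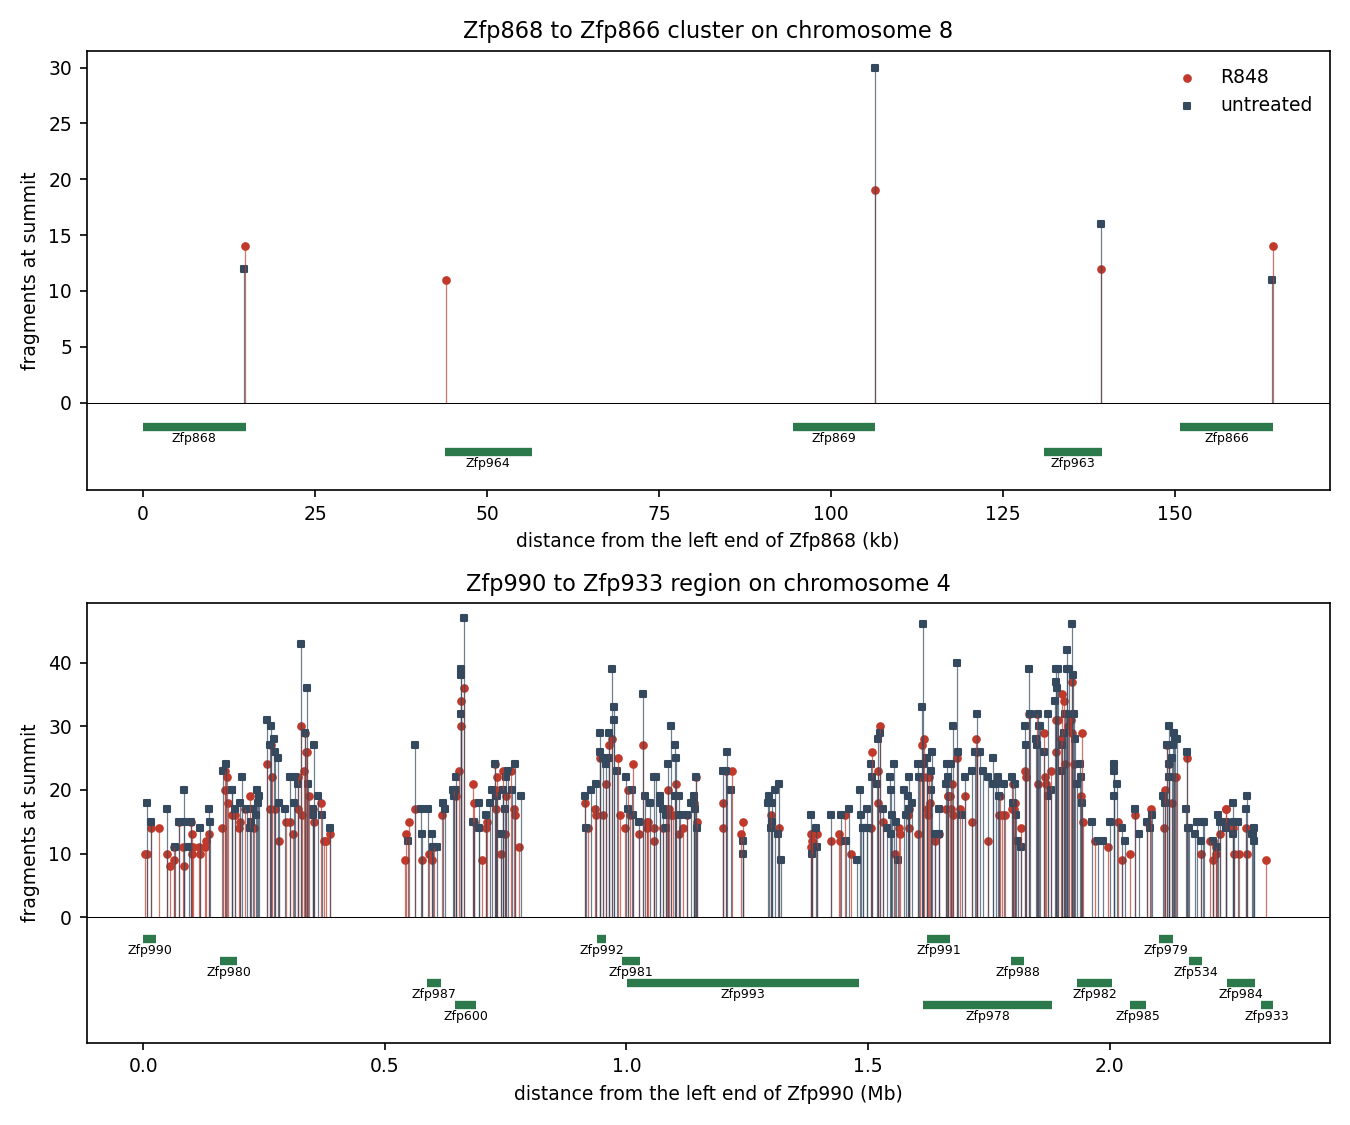
Fragments at the summit (y axis) of every peak along the chromosome 8 cluster (upper panel, distance in kb) and the chromosome 4 stretch (lower panel, distance in Mb), with R848 as circles, untreated as squares and the annotated extent of each member as a bar. On chromosome 8 the peaks stand at gene ends with 11 to 30 fragments, whereas on chromosome 4 the 244 R848 and 306 untreated peaks fill the space within and between genes.

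How alike the members of that stretch are in sequence was not analysed here, and the sources used here do not say how reads that match several copies were placed, so single-gene values there are uncertain. Within it, the cluster of 9 genes from Zfp978 to Zfp933 had gene-end peaks at 6 genes. Zfp991 had one in both lists (2.95 in R848, 2.94 in untreated), Zfp985 in R848 only (2.58), and Zfp978, Zfp982 (2.81), Zfp979 (2.07) and Zfp534 in untreated only, while Zfp988, Zfp984 and Zfp933 had none. The annotations of Zfp993 and Zfp978 are long and held 41 and 40 R848 peaks and 52 and 50 untreated peaks. Without the 16 genes the members' shares were 19.5% in R848 and 30.0% in untreated.

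Counted as distinct intervals, the members' gene-end peaks numbered 55 in the R848 list and 74 in the untreated list. No R848 peak and 3 untreated peaks served several members, all 3 on chromosome 7. The median width was 337 bp in R848 and 356 bp in untreated. Of these, 9 R848 peaks (16.4%) and 13 untreated peaks (17.6%) also lay within 1000 bp of an end of a gene that is not a member, so that they cannot be assigned to the zinc finger gene alone. The neighbours at R848 peaks were Csad, Cggbp1, Ppm1g, Fiz1, Vrk3, Septin1, Tubgcp2, Ecsit and LOC115488529, beside Zfp740, Zfp654, Zfp513, Zfp524, Zfp473, Zfp553, Zfp511, Zfp653 and Zfp706, all of which had peaks in both lists. The untreated list added Sh3bp5l, Arhgap1, Mrps5 and Zfp398, beside Zfp672, Zfp408, Zfp661 and Zfp786.

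The proteins that act with KRAB zinc finger proteins were read in the same way. Of 17 such genes, 6 had a gene-end peak in the R848 list (35.3%, interval 14.2 to 61.7%) and 10 in the untreated list (58.8%, 32.9 to 81.6%), against 24.4% and 28.8% of all genes. Trim28, the co-repressor itself, had a fold of 5.04 with 21 fragments in the untreated list and no R848 peak. The 6 genes with none in either list were Setdb1, Tasor, Pphln1, Smarcad1, Atf7ip and Dnmt1. The HP1 genes Cbx3 (4.70 in R848, 5.49 in untreated) and Cbx5 (4.88 in R848, 4.75 in untreated) and the deacetylase genes Hdac1 (4.70 in R848, 3.66 in untreated) and Hdac2 (3.32 in R848, 2.98 in untreated) had peaks in both lists, as did Morc2a (3.04 in R848, 3.66 in untreated). Uhrf1 (3.78) had one in R848 only, and Chd3, Cbx1 and Mphosph8 (3.20 each) and Chd4 (2.46) in untreated only. With so few genes the intervals were wide.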

How the data were processed

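KAT8 CUT&Tag peaks were read from 1 R848 and 1 untreated library of macrophages, grouped by the treatment label, and a single library per group allows no test. The authors deposited 1 narrowPeak list per library, per the labels, giving every peak a summit, a score, the ratio of its summit to background (its fold), a −log10 p-value and a −log10 q-value. Per the submitters' processing notes, Bowtie 0.12.8, MACS2 2.2.7.1, DiffBind and mm10 were used, with no role or order stated; caller settings, duplicate handling, the treatment of reads that match several places and any control library: not given in the sources used here. At so loose a threshold many weak peaks stand in 1 list only, and greater depth lets lower folds through.

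The deposited lists hold no read counts. The summit pileup and local background were solved from the deposited fold, read as pileup over background with 1 added to each, together with a Poisson tail equal to the deposited −log10 p. They were whole within 0.05 for all of 44669 R848 and 51889 untreated peaks solved. Genes came from the RefSeq table of GRCm38.p6, and strand and promoter sequence from the RefSeq promoter table, which held 195 of the 236 members. Without an exon table, the last-exon end is the gene end opposite the start. A gene was given a peak if any base fell within 1000 bp of either end, and peaks overlapping by at least 1 bp were called shared. Shares have exact 95% (Clopper-Pearson) intervals and fragment counts exact Poisson intervals, which cover counting error only. PCR reads are not independent molecules. Zinc finger domains were not analysed here. Python 3.11.15, pandas 2.3.3 and scipy 1.17.1 were used, and the code was tested on simulated data.

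The members, the comparison lists and the motifs were chosen with earlier results of these data known. Genes named are up to 12 members with peaks in both lists by higher fold, up to 8 in each list only, up to 8 with a peak at the last-exon end and not the start, all members of up to 5 clusters where 3 or more have a peak, members sharing a peak, the 3 nearest the window limit on either side, and Zfp423, Zfp451, Zfp521, Zfp568, Zfp598, Zfp687, Zfp746, Zfp809, Trim28 and Setdb1. Other genes named were chosen after their values were seen. The alternatives were windows of 500 and 3000 bp and the whole gene, q-value thresholds, lists of equal length, stricter overlap and other cluster distances.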

Additional observations from a re-analysis of the deposited data

How the results depend on the processing

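Of 112 values recomputed under an alternative, 82 kept within the main value's interval or within 1.5 times the main count and 30 moved, with R848 given before untreated throughout. A window of 500 bp left 8 R848-only members, against 15. A window of 3000 bp gave 33.5% and 39.8% of members (all genes 32.9% and 38.0%), 104 and 129 distinct peaks, 57 members in both lists and 22 R848 members on chromosome 7. The whole gene with 1000 bp around it gave 41.5% and 50.4% of members, against 44.5% and 49.1% of all genes. A q-value of 0.05 or less gave 12.3% and 15.7% of members (all genes 15.1% and 16.7%) and 31 and 39 distinct peaks. It left 5 and 13 members on chromosome 7, 19 in both lists and 18 untreated only. Held against any peak of the other list, it left 6 R848-only and 12 untreated-only members. A −log10 q of at least 5 gave 2.54% and 4.66% of members (all genes 4.39% and 5.97%) and 6 and 11 distinct peaks. It left 1 and 2 members on chromosome 7, 6 in both lists, 0 R848 only and 5 untreated only. Of the 4 R848 members with such a peak, a known strand and at least 3000 bp, 75.0% had it at the start. Overlap by 50% of each peak left 19 members in both. Fewer peaks or wider windows make these counts smaller or larger by construction. The shares of all chromosome 7 genes were not computed under these alternatives.

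The clustered minus single difference was −5.61 points in R848 and −1.27 in untreated, but its sign changed in untreated at 500 bp (1.61), 3000 bp (0.708) and a cluster distance of 50 kb (3.37), and in R848 at 50 kb (0.153), so its direction was not stable and the cause was not tested. The leaving out of the chromosome 4 stretch (13 R848 only, 36 untreated only, 30 both), the scaled untreated pileups (37 untreated only) and the chromosome 7 values were chosen after seeing the data. No paired analysis was possible because each group is 1 library, and for the same reason no replicate could be left out. At 7 fragments in R848 and 8 in untreated as the lowest summits called, a gene without a peak had none detectable at this depth.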

Other observations

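Some members held many peaks within the gene and none at its ends. Zfp536, known as a repressor of neuronal differentiation, held 17 in the R848 list and 12 in the untreated list, Zfp423 held 14 and 16, and Zfp469 held 10 and 8. These counts were not scaled by gene length, and a longer gene holds more peaks at an equal density. Over the genome there were 16.5 peaks per Mb in R848 and 19.1 in untreated. Counted over the whole gene with 1000 bp around it, 98 members (41.5%) had a peak in the R848 list and 119 (50.4%) in the untreated list. The shares of all protein-coding genes were 44.5% and 49.1%. By the ends of the gene table, 51 and 47 members thus had peaks away from their ends only. Some of these peaks lay over an annotated promoter beyond the window, as at Zfp787, Zfp821, Zfp777 and Zfp800 in both lists. Zfp521 held 1 peak in the R848 list and 4 in the untreated list. Zfp451 held none in R848 and 1 in untreated, which overlapped its annotated promoter.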
